A study of Homo sapiens with 8 samples.

Results

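Parental MEL202 cells without Shld were compared with parental MEL202 cells given Shld, over 8602 named genes of the 32087 loci in the deposited table. MEL202 is a human uveal melanoma cell line that carries mutant SF3B1, a core subunit of the complex that recognises the branch point of introns. The pair is made of 2 of the 8 RNA-seq libraries of the study: 1 parental library without Shld and 1 parental library with Shld, both called repeat 1. The other 3 lines are MEL202 derivatives, each with 1 library without and 1 with Shld: a line whose mutant SF3B1 allele was knocked out (the knockout line), and 2 lines with a destabilising domain (DD), placed on mutant SF3B1 in the mutant degron line and on wildtype SF3B1 in the wildtype degron line. Whether each of these lines was 1 clone is not given in the sources used here. No DD is named for the parental cells on either SF3B1 allele. The deposited table names the parental library without Shld as 4 days, a time its sample label does not give. The sample labels give 2 days for the other 3 lines. For the knockout line, the table names in addition a DD on wildtype SF3B1 and 4 days, which its label does not.

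Genes entered when their mean over the 8 libraries was at least 5 rescaled FPKM (fragments per transcript length and library size, rescaled by the authors so that the 75th percentile of each library was 10). The gene just inside this limit was RNF150, with 2.10 rescaled FPKM without and 1.61 with Shld in parental cells, and the gene just outside was DYNC2H1, with 3.07 without and 3.09 with Shld. All differences are log2(value + 1) without Shld less with Shld, so a positive difference is a higher value without Shld, and this scale understates the change of low genes. With 1 library a side the parental difference itself has no replicate check and no test. Ligand, days in culture and library cannot be told apart in it.

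The DD is an unstable variant of the immunophilin FKBP12, the product of FKBP1A. A protein that carries it is degraded unless Shld, a synthetic ligand, binds and stabilises the domain. Cells without a DD, given and denied the same ligand, are the usual control for what the ligand and the handling do by themselves. Transcripts of the translation machinery, of the secretory pathway and of the respiratory chain are among the most abundant in cultured cells, so shifts in culture state and shifts between libraries are both read easily in them.

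The library sums were 875923 rescaled FPKM without Shld and 961994 with Shld, and 13981 and 13953 loci were listed at 0. The values are not counts and absolute depth is unknown, but the steps of low values gave 1.08 times as many fragments per unit in the parental library without Shld as in the one with Shld. All 9 melanocyte markers found were present in both parental libraries, among them PMEL, a melanosome fibril protein, at 5992 rescaled FPKM without and 4796 with Shld, and MLANA, a melanosome protein, at 1824 without and 2283 with Shld. All 5 endothelial and all 5 epithelial markers found were under 1 in both libraries, as were 3 of 4 fibroblast, 4 of 5 leukocyte and 2 of 4 neuron markers. The exceptions were LUM at 20.7 without and 29.6 with Shld, PTPRC at 1.16 without and 1.00 with Shld, TUBB3 at 181 without and 179 with Shld, and RBFOX3 at 12.3 without and 17.9 with Shld. The sums of these marker lists were 13008 without and 11983 with Shld for melanocytes and 21.0 without and 29.9 with Shld for fibroblasts, and their part in the differences below was not tested.

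The parental library with Shld held more of the extreme values than any other library. The parental library without Shld held the highest of the 8 values in 5.37% of genes and the lowest in 2.6%, whereas the parental library with Shld held the highest in 20.8% and the lowest in 20%. Highest and lowest together came to 40.8% of genes for the parental library with Shld, against 12.1% to 35.0% for the 6 libraries of other lines. The parental library without Shld was also nearer to each of those 6 libraries than the one with Shld was. Its median absolute log2 difference was 0.255 to the knockout line without Shld, for example, against 0.311 for the parental library with Shld. Against the wildtype degron line without Shld it was 0.258, against 0.347 for the parental library with Shld. The wildtype degron library without Shld lay as far out, with 0.258 to 0.355 to the libraries of other lines, against 0.225 to 0.347 for the parental library with Shld. Every parental difference below rests on the parental library with Shld, since leaving it out leaves no pair.

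**Figure D1:**
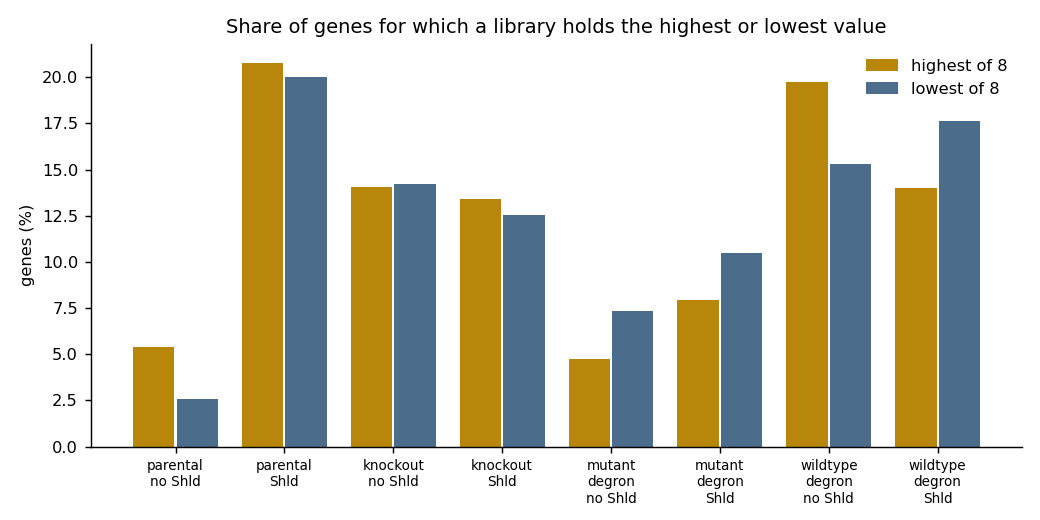
Share of the 8602 genes (vertical axis, %) for which each library held the highest (gold) or the lowest (blue) of the 8 values; 1 bar a library. The parental library without Shld has the smallest share of highest and lowest values together of the 8 libraries, and the parental library with Shld the largest.

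Few genes differed by much between the parental libraries. At 1.5-fold, which is 0.58 on the log2(value + 1) scale, 9 genes were higher without Shld (0.105% of those tested) and 67 were lower (0.779%), so 0.884% differed in either direction. After a correction for transcript length, described below, the split was 17 higher and 31 lower among the 8446 genes with a length, of which 8 and 62 were called before it. At 2-fold, 2 were higher (0.0233%) and 3 lower (0.0349%), which is 0.0581% in either direction. The middle 95% of differences ran from -0.45 to 0.35, with a median of 0.03. Over all genes 55.8% were above 0, the share beside which the counts of list members below stand. The spread of the differences was 0.17 (scaled median absolute deviation), against 0.21 in the knockout, 0.12 in the mutant degron and 0.14 in the wildtype degron pair. At the same 1.5-fold, 1.43% of genes were higher and 2.41% lower without Shld in the knockout pair (3.84% in either direction). In the mutant degron pair 0.233% were higher and 0.093% lower (0.326%), and in the wildtype degron pair 0.209% were higher and 0.546% lower (0.756%). The parental pair, for which no DD is named, gave more calls than the mutant degron and wildtype degron pairs and fewer than the knockout pair. Each of these is a single pair of libraries.

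In most of the 67 lower genes the value with Shld was high among the 8 libraries. The library with Shld held the highest of the 8 values in 59 of them, against 20.8% of all genes. The library without Shld held the lowest in 2, against 2.6% of all genes. Against the median of the 6 libraries of other lines, the 67 genes had a median of 0.12 in the library without Shld and of 0.78 in the library with Shld. For the 9 higher genes these medians were 0.07 without and -0.67 with Shld. The 67 and the 9 genes were picked by the difference between the 2 parental values. Such ranks and medians are therefore in part built into the calls. Of the 67 lower genes 19 had a mean of at least 100 rescaled FPKM, against 0 of the 9 higher genes and 14.0% of all genes. Another 17 of the 67 had a mean from 5 to 10, a level at which 1.54% of 1433 genes were called in either direction. Of the 185 genes with a mean of at least 500, 11 were lower and none higher (5.95% called), and their median difference was -0.19.

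**Figure D2:**
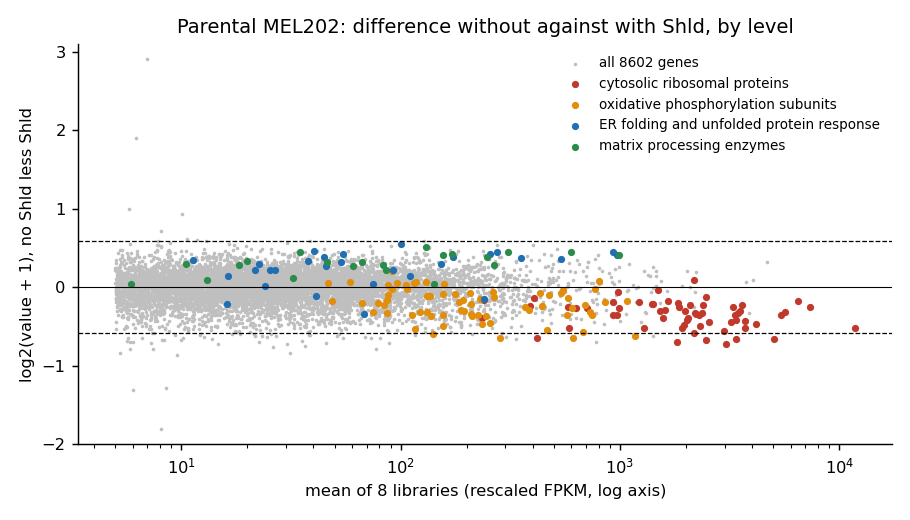
Difference of each of the 8602 genes in parental cells (vertical axis, log2(value + 1) without less with Shld) against its mean over the 8 libraries (horizontal log axis, rescaled FPKM). Grey points are all genes, coloured points 4 gene lists, and dashed lines mark 1.5-fold. Ribosomal protein genes (red) lie below 0 at the right, and genes of ER folding and matrix processing (blue and green) lie mostly above 0.

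Genes of the cytosolic ribosome were lower without Shld almost throughout. Of 62 ribosomal protein genes measured, 61 were below 0 and 7 of them past 1.5-fold, with a median of -0.33, against 0.03 over all genes. Below 0 were 54 of them after a correction for transcript length and 40 after quantile normalization of the 8 libraries. Together the list made up 19.0% of all rescaled FPKM without Shld and 22.6% with Shld, and 13.0% to 20.5% in the 6 libraries of other lines. The list's median was -0.14 in the knockout, 0.06 in the mutant degron and -0.02 in the wildtype degron pair.

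The 7 ribosomal protein genes past 1.5-fold were RPS21, RPS27A, RPS7, RPS29, RPL27, RPL9 and RPS13, of which RPS13 was added to complete the called set. RPS21, a protein of the small subunit, had 3149 rescaled FPKM without and 5179 with Shld (log2 difference -0.72). RPS29, also of the small subunit, had 5552 without and 8810 with Shld (-0.67), and RPL27, of the large subunit, had 3693 without and 5840 with Shld (-0.66). In each of these the library with Shld was the highest of all 8. The library without Shld lay among the other lines for RPS21 and RPS29 and above them for RPL27. RPS27A, which encodes a fusion of ubiquitin and a small subunit protein, had 1948 without and 3151 with Shld (-0.69). RPS7 had 2637 without and 4188 with Shld (-0.67), RPL9 had 409 without and 639 with Shld (-0.64), and RPS13 had 2377 without and 3573 with Shld (-0.59). Over the 62 genes the library with Shld was the highest of 8 in 56 and the lowest in none. Reads of ribosomal protein genes can be shared with their processed pseudogenes, so single values are uncertain.

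Ribosomal protein transcripts commonly begin with a C at the cap followed by a run of pyrimidines, the terminal oligopyrimidine tract, through which growth signalling by mTOR controls their translation. The starts of the 7 called genes are shown because they show how far this shared feature runs through them. Each line gives 10 bases before and 20 from the RefSeq start on the gene's strand (RefSeq, GRCh38.p14), and capitals mark the tract where the start is C followed by at least 4 further C or T. For genes with several listed starts the one with a tract was taken, otherwise the first listed.
RPS21: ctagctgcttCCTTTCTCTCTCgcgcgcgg
RPS27A: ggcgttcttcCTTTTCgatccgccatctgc
RPS13: ctctcgctctCCTTTCgttgcctgatcgcc
RPS7: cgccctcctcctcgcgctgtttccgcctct
RPS29: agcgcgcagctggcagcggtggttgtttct
RPL27: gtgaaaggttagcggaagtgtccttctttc
RPL9: taatgacgacagacgttctttctttgctgc
In the order printed these lie at chr20:62387093-62387122 (+), chr2:55232678-55232707 (+), chr11:17077648-17077677 (-), chr2:3575250-3575279 (+), chr14:49598691-49598720 (-), chr17:42998409-42998438 (+) and chr4:39458903-39458932 (-). RPS21 has the longest tract of the 7, with 12 bases, and 4 of the 7 have none at the listed start. The search read the gene's strand alone, and no match says only that these letters are not at the listed start.

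Of the 54 ribosomal protein genes matched by symbol to the RefSeq table, 40 had the tract (74.1%). Among the 6257 matched analysed genes outside the list the share was 7.70%. In that table as a whole it was 5.14% of the 27305 genes and 4.07% of the 35116 starts. The ribosomal protein genes had a median difference of -0.35 with the tract and -0.28 without it. Outside the list, 482 analysed genes had the tract, with a median of 0.02, against 0.03 for those without it. Translation factors, whose starts were not counted apart, lay on both sides of 0 (15 of 29 above, median 0.01). EIF3E, an eIF3 subunit, had 905 rescaled FPKM without and 1220 with Shld (-0.43), whereas EIF4G1, the scaffold of the cap-binding complex, had 125 without and 103 with Shld (0.28). The genes of ribosome biogenesis, whose products process ribosomal RNA, had 21 of 32 above 0 (median 0.08), with FBL, the fibrillarin methyltransferase, at 207 without and 176 with Shld.

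**Figure D3:**
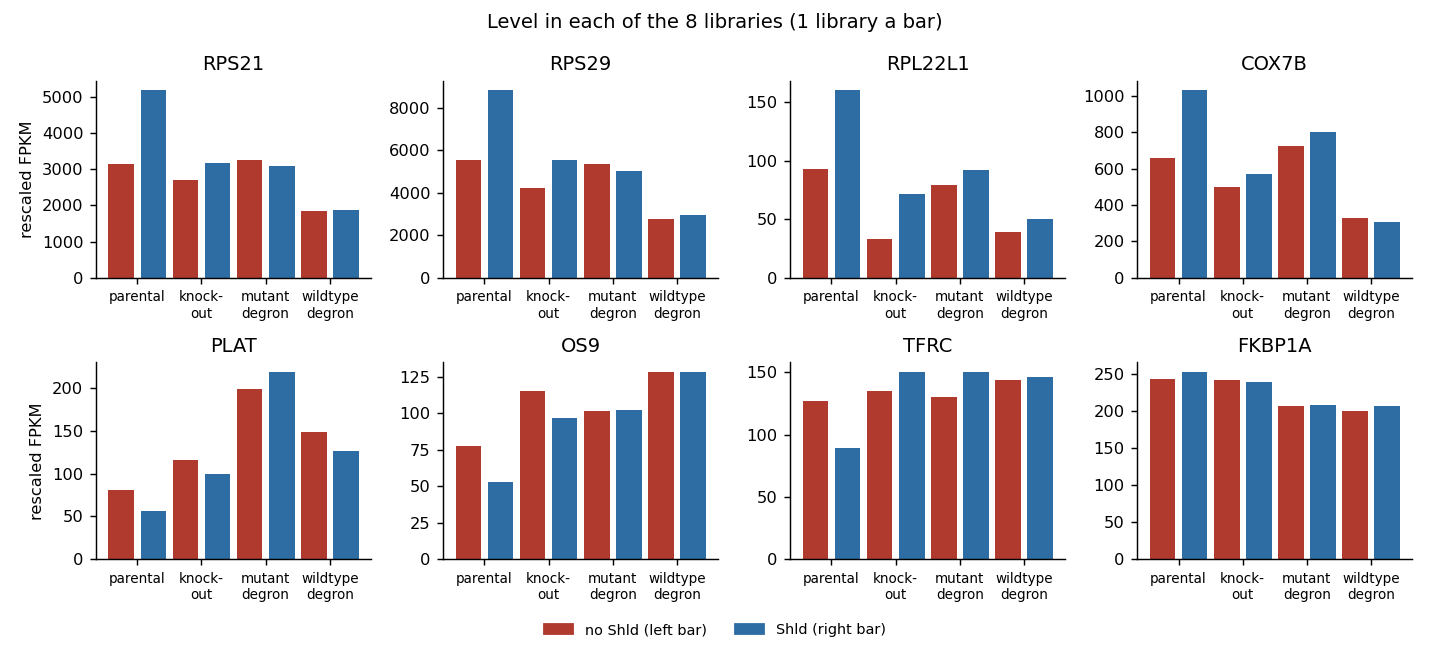
Rescaled FPKM (vertical axes, from 0) of 8 genes in each library, with the pairs of the 4 lines along the horizontal axis; red bars are libraries without Shld, blue bars libraries with Shld, and each bar is 1 library. RPS21, RPS29, RPL22L1 and COX7B are highest in the parental library with Shld, and PLAT, OS9 and TFRC are lowest in it, whereas FKBP1A differs little.

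The parental differences also moved with transcript length, taken from an annotation on another build than the files for 98.2% of the genes. The median difference was -0.25 for the 137 genes of up to 600 bases, -0.12 for 664 genes of 600 to 1000 bases, -0.02 for 2284 of 1000 to 2000, 0.04 for 3412 of 2000 to 4000 and 0.08 for 1949 over 4000 bases. In the other 3 pairs the same 5 medians stayed between -0.06 and 0.06. Across the 8446 genes with a length, which share their 2 libraries and are not independent, Spearman's rho between difference and length was 0.31 in the parental pair, 0.13 in the knockout, -0.21 in the mutant degron and -0.04 in the wildtype degron pair. Of the 62 lower genes with a length, 26 had at most 1000 bases, against 9.48% of all genes with a length.

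Within bins of length the ribosomal protein genes still lay below the others. At up to 600 bases the 19 ribosomal protein genes had a median of -0.33 and the 118 others of -0.21. At 600 to 1000 bases the medians were -0.39 for 31 ribosomal protein genes and -0.11 for 633 others. At 1000 to 2000 bases they were -0.22 for 12 and -0.02 for 2272. After the difference was corrected for length by a smooth curve, the ribosomal protein median was -0.16. The curve was fitted to all genes with a length, the ribosomal protein genes included. Quantile normalization of the 8 libraries brought the ribosomal protein median to -0.09. That method makes values of equal rank equal across libraries, so a shift shared by the most abundant genes shrinks under it by design.

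**Figure D4:**
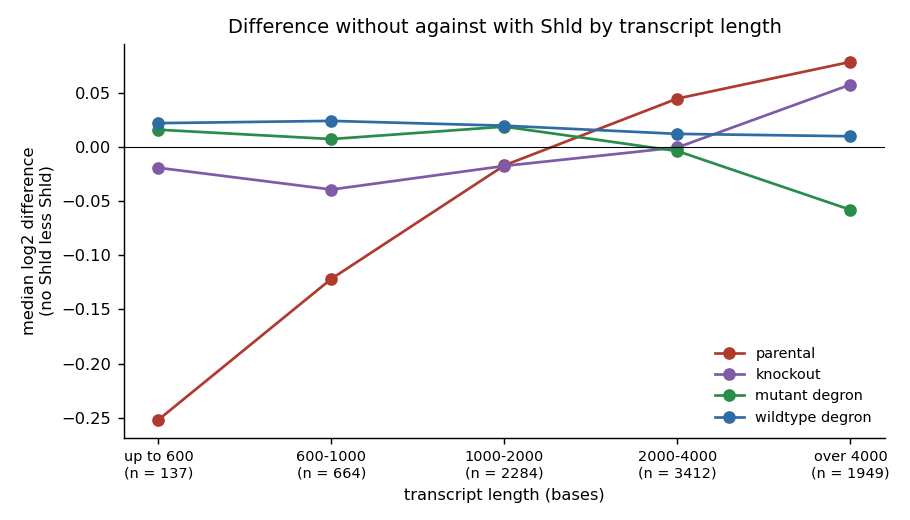
Median difference (vertical axis, log2(value + 1) without less with Shld) of genes in 5 bins of transcript length (horizontal axis, bases, with the number of genes), 1 line for each of the 4 lines. In parental cells the median runs from -0.25 in the shortest bin to 0.08 in the longest, and no other line spans as much.

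Subunits of oxidative phosphorylation, the complexes of the respiratory chain and the ATP synthase, were lower without Shld in 58 of 69 genes (median -0.21), with 4 past 1.5-fold. COX7B, a subunit of cytochrome c oxidase, had 657 rescaled FPKM without and 1029 with Shld (-0.65). NDUFA4 had 274 without and 429 with Shld (-0.64), NDUFB9, a complex I subunit, had 1131 without and 1736 with Shld (-0.62), and NDUFB5, of the same complex, had 158 without and 238 with Shld (-0.59). The parental library with Shld was the highest of 8 in each of the 4 and in 53 of the 69. These genes are short, with a median length of 753 bases, and after the length correction the list's median was -0.03, with 40 of 69 below 0. The curve of that correction was fitted with these genes included, so it cannot fully separate length from the list. The medians of the list in the other lines were -0.05 in the knockout, -0.01 in the mutant degron and 0.04 in the wildtype degron pair.

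Proteins of the mitochondrial ribosome showed a smaller difference of the same sign, with 57 of 68 genes below 0 and a median of -0.13 (-0.05 after the length correction, with 45 below 0). None of the 68 passed 1.5-fold. MRPL33 had 202 rescaled FPKM without and 287 with Shld (-0.50), MRPL54 had 76.1 without and 106 with Shld (-0.48), and MRPL13 had 179 without and 243 with Shld (-0.44). Host genes of small nucleolar RNAs, noncoding transcripts whose introns release the guides of ribosomal RNA modification, were below 0 in 6 of 6, and in 4 of 6 after the length correction. The list's median was -0.25 in parental cells, -0.30 in the knockout, -0.07 in the mutant degron and 0.04 in the wildtype degron pair. SNHG5 was the one host gene past 1.5-fold, with 1814 without and 2793 with Shld (-0.62). It was also lower without Shld in the knockout line, with 792 without and 1456 with Shld (-0.88). In the wildtype degron line SNHG5 had 580 without and 774 with Shld (-0.41), and its difference in the mutant degron line was -0.06. SNHG6 had 1510 without and 1880 with Shld (-0.32) in parental cells.

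Proteasome subunits did not share a direction, with 16 of 35 above 0, a median of -0.05 and none past 1.5-fold. PSMA5 and PSMA6, of the catalytic core's outer ring, stood at the low end, with 52.8 rescaled FPKM without and 73.1 with Shld for PSMA5 (-0.46) and 271 without and 368 with Shld for PSMA6 (-0.44).

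Genes of the secretory pathway lay on the other side. Of 29 genes of endoplasmic reticulum (ER) folding and the unfolded protein response, 25 were higher without Shld, with a median of 0.29, and none passed 1.5-fold. OS9, a lectin of ER quality control, had 78.0 rescaled FPKM without and 52.8 with Shld (0.55). P4HB, a protein disulphide isomerase, had 846 without and 621 with Shld (0.45), and HSPA5, the main ER chaperone BiP, had 214 without and 160 with Shld (0.42). The parental library with Shld was the lowest of the 8 in each of these and in 19 of the 29, against 20% of all genes. Against the median of the 6 libraries of other lines, the list had a median of -0.20 without and -0.55 with Shld. By that measure both parental libraries lay below the other lines, the one with Shld further. CRELD2 had 38.1 without and 27.4 with Shld (0.46), PDIA3, a glycoprotein disulphide isomerase, had 226 without and 166 with Shld (0.45), and DNAJB11, a cochaperone of BiP, had 49.9 without and 37.1 with Shld (0.42). The list's median was 0.31 after the length correction, and 0.04 in the knockout, -0.12 in the mutant degron and 0.11 in the wildtype degron pair.

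Matrix processing enzymes were higher without Shld in 21 of 21 genes (20 under quantile normalization), with a median of 0.32 (0.31 after the length correction). The library with Shld was the lowest of 8 in 17, against 20% of all genes. Against the median of the 6 libraries of other lines, the list had a median of -0.34 without and -0.66 with Shld, so both parental libraries lay below them. PLAT, tissue plasminogen activator, had 81.3 rescaled FPKM without and 56.8 with Shld (0.51). MMP14, a membrane-bound metalloproteinase, had 203 without and 148 with Shld (0.45), and SERPINH1, the collagen chaperone, had 449 without and 330 with Shld (0.44). P4HA2, a collagen prolyl hydroxylase, had 27.6 without and 20.02 with Shld (0.44), PLOD1, a lysyl hydroxylase, had 125 without and 92.7 with Shld (0.43), and TIMP1, an inhibitor of metalloproteinases, had 163 without and 122 with Shld (0.42). None reached 1.5-fold, and in the other lines the list had medians of 0.14 in the knockout, -0.04 in the mutant degron and 0.15 in the wildtype degron pair.

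The matrix proteins themselves did not share that direction. Collagens, laminins and matrix glycoproteins had 14 of 27 above 0 and a median of 0.00. SPARC, a collagen-binding glycoprotein, had 342 rescaled FPKM without and 256 with Shld (0.42), and FN1, fibronectin, had 47.6 without and 37.1 with Shld (0.35). LUM, the proteoglycan lumican, had 20.7 without and 29.6 with Shld (-0.50), and COL16A1 had 6.40 without and 9.28 with Shld (-0.47). Among integrins and cadherins 8 of 11 were above 0 (median 0.26). ITGB1, the integrin beta chain shared by many receptors, had 203 without and 156 with Shld (0.38), ITGA6 had 5.79 without and 3.70 with Shld (0.53), and ITGA7 had 10.0 without and 12.9 with Shld (-0.33). Targets of YAP, a coactivator that responds to cell density and adhesion, were above 0 in 10 of 10 (median 0.16). After the length correction 9 of 10 were above 0 (median 0.11). The list's median was 0.12 in the knockout, -0.13 in the mutant degron and 0.19 in the wildtype degron pair. In the wildtype degron pair, too, 10 of 10 were above 0. CTGF had 3.55 without and 2.40 with Shld in parental cells (0.42). These targets were low in both parental libraries. CTGF stood at 79.1 without and 78.5 with Shld in the knockout line and at 29.5 without and 31.9 with Shld in the mutant degron line. In the wildtype degron line it was low as well, with 5.42 without and 3.51 with Shld.

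Genes of antigen presentation and of the lysosome lay above 0 in 9 of 10 and 31 of 37, against 55.8% of all genes. The class I presentation list had a median of 0.33, CALR, the ER lectin calreticulin, standing at 767 rescaled FPKM without and 579 with Shld (0.41) and CANX, calnexin, with 458 without and 357 with Shld (0.36). The exception was B2M, the light chain of class I molecules, with 916 without and 1264 with Shld (-0.46), the highest of the 8 libraries. CALR, CANX and PDIA3 also serve general ER folding, so the 2 groups are not separate. The 37 lysosome and autophagy genes had a median of 0.13. Their median was 0.18 in the knockout, 0.02 in the mutant degron and 0.05 in the wildtype degron pair. LAMP1, a lysosomal membrane protein, had 136 without and 101 with Shld (0.42), PSAP, the saposin precursor, had 676 without and 507 with Shld (0.41), and CTSD, cathepsin D, had 430 without and 324 with Shld (0.41). GABARAPL2, an autophagosome protein, had 150 without and 197 with Shld (-0.39).

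**Figure D5:**
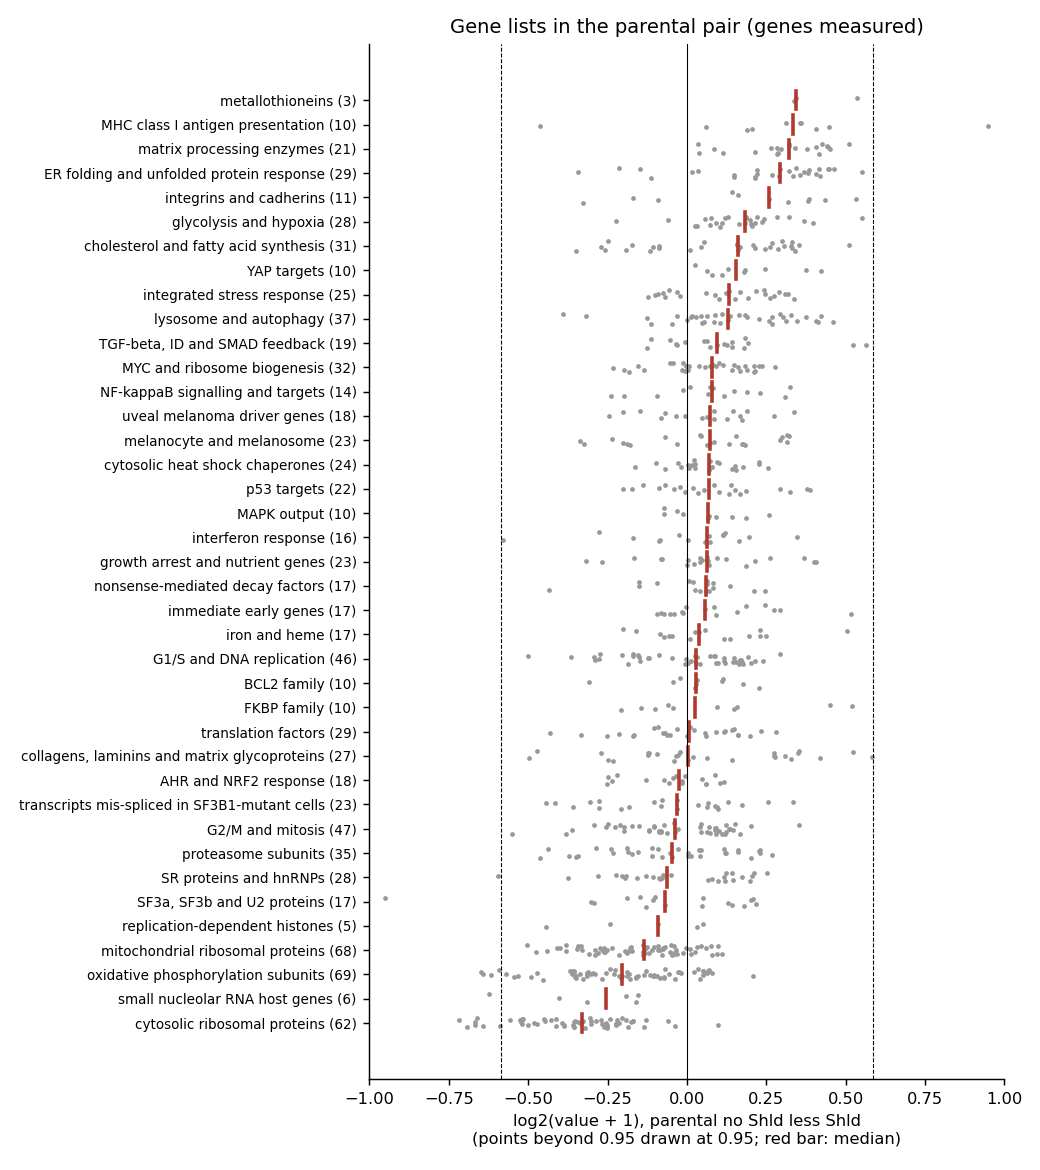
Differences of the genes of 39 lists in parental cells (horizontal axis, log2(value + 1) without less with Shld), 1 row a list with the number measured in brackets, grey points for genes and a red bar for each list's median; dashed lines mark 1.5-fold. Ribosomal protein, small nucleolar RNA host and oxidative phosphorylation genes sit lowest, and metallothionein, antigen presentation, matrix processing and ER folding genes sit highest.

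Metabolic genes showed smaller differences. Of 28 genes of glycolysis and the hypoxia response 26 were above 0 (median 0.18), ADM, adrenomedullin, with 4.43 rescaled FPKM without and 2.70 with Shld (0.55), HK2, a hexokinase, with 11.8 without and 8.69 with Shld (0.40) and SLC2A1, the glucose transporter GLUT1, with 5.02 without and 3.65 with Shld (0.37). Cholesterol and fatty acid synthesis had 21 of 31 above 0 (median 0.16). SQLE, squalene epoxidase, had 192 without and 153 with Shld (0.33), while HSD17B7 had 31.0 without and 39.8 with Shld (-0.35). The list's medians were -0.19 in the knockout, 0.12 in the mutant degron and -0.17 in the wildtype degron pair.

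The 3 metallothioneins measured, small proteins that bind zinc and copper, were all above 0. MT1A had 409 rescaled FPKM without and 281 with Shld (0.54), MT1X had 62.9 without and 49.3 with Shld (0.34), and MT1E had 51.6 without and 40.7 with Shld (0.34). Metallothionein genes are near-identical copies, so their values may share reads. SLC30A1, the zinc exporter of the plasma membrane, was past 1.5-fold, with 8.78 without and 5.51 with Shld (0.59). TFRC, the transferrin receptor that takes up iron, had 127 without and 89.1 with Shld (0.50), the lowest of the 8 libraries, while the iron and heme list as a whole had 11 of 17 above 0 (median 0.04).

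Outside the lists, single genes differed further. Of the 67 lower genes, 14 were in any of the 39 lists, and of the 9 higher genes 1 was. GPRIN3, a member of a family tied to neurite outgrowth, had 5.10 rescaled FPKM without and 20.4 with Shld (-1.81), 16.3 without and 11.9 with Shld in the wildtype degron line, 5.59 without and 4.77 with Shld in the mutant degron line and 0.33 without and 0.29 with Shld in the knockout line. A second GPRIN3 locus in the table had 6.82 without and 7.55 with Shld in parental cells, so the difference was at 1 of these 2 loci. S100A4, a calcium-binding protein linked to motility, had 5.22 without and 14.1 with Shld (-1.28), and in the knockout line 3.04 without and 6.06 with Shld (-0.81). In the mutant degron line S100A4 had 15.5 without and 15.98 with Shld, close to the parental library with Shld. In the wildtype degron line it had 4.11 without and 4.16 with Shld, close to the parental library without Shld.

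XG, the Xg blood group antigen, had 14.1 rescaled FPKM without and 26.5 with Shld (-0.86). Its differences were -0.87 in the knockout, -0.70 in the mutant degron and -0.04 in the wildtype degron pair. A second, low XG locus had 2.58 without and 2.89 with Shld in parental cells (-0.12). In the mutant degron line that locus had 0.72 without and 0.66 with Shld. IMMP1L, a subunit of the inner mitochondrial membrane peptidase, had 27.5 rescaled FPKM without and 47.2 with Shld (-0.76). Its differences were -0.67 in the knockout, -0.11 in the mutant degron and -0.66 in the wildtype degron pair. IMMP1L and the higher XG locus were thus below 0 in all 4 lines. ZCCHC10, a zinc finger protein, had 25.2 without and 45.7 with Shld (-0.83), ATHL1, a glycosidase, had 33.5 without and 57.1 with Shld (-0.75), and ITGB3BP, a centromere protein, had 50.7 without and 83.9 with Shld (-0.72). In each of these 3 the library with Shld was the highest of the 8. C2orf76 had 31.9 without and 53.3 with Shld (-0.72), and C12orf39, the precursor of the peptide spexin, had 4.12 without and 8.15 with Shld (-0.84). ZNF232, a zinc finger protein, had 17.2 without and 28.9 with Shld (-0.72), and at a second locus 6.61 without and 8.05 with Shld (-0.25). FLJ35024 had 5.65 without and 10.4 with Shld (-0.78), and TCF25 had 2.65 without and 5.28 with Shld (-0.78), the lowest of the 8 libraries being the one without Shld. TCF25 differed the other way in the knockout line, with 13.5 without and 5.61 with Shld (1.13).

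SOX5, a transcription factor of the SOX family, was the gene furthest above 0 among those with both values at least 1. It had 7.15 rescaled FPKM without and 3.08 with Shld (1.00), and its 6 values in the other lines lay between 4.61 and 8.37. LRFN1, a synaptic adhesion protein, had 10.9 without and 5.23 with Shld (0.93). In the other lines LRFN1 had 16.7 without and 3.82 with Shld in the mutant degron line, 19.3 without and 9.25 with Shld in the wildtype degron line and, the other way, 6.37 without and 8.56 with Shld in the knockout line. APOOL, a protein of the mitochondrial inner membrane, had 11.6 without and 6.71 with Shld (0.71), and UFL1, the ligase that attaches UFM1, had 10.9 without and 6.79 with Shld (0.61). PCYT1A, the regulated enzyme of phosphatidylcholine synthesis, had 12.9 without and 8.17 with Shld (0.60), and RNASET2, a lysosomal ribonuclease, had 7.84 without and 4.87 with Shld (0.59). SOX5, UFL1, PCYT1A and RNASET2 were lowest of 8 in the parental library with Shld.

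Both other genes higher past 1.5-fold had an estimate near 0 with Shld. HLA-C, a class I heavy chain that shares sequence with other HLA genes, had 6.48 rescaled FPKM without Shld and was at 0 to 3 decimals with Shld. It was also near 0 in the mutant degron line with Shld, with 17.5 without, and stood between 3.03 and 12.2 in the other 4 libraries. PCNA-AS1, antisense to PCNA, had 2.74 without and 0.003 with Shld. It was near 0 with Shld and higher without it in the other lines too, with 5.50 without Shld in the knockout line and 8.22 in the mutant degron line. In the wildtype degron line PCNA-AS1 had 33.1 without and 0.20 with Shld. Use of strand in the counting is not given in the sources used here, so reads of PCNA-AS1 and of PCNA, which had 321 without and 393 with Shld in parental cells, cannot be told apart.

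The gene that the study targets and the gene of the DD's parent protein differed little. SF3B1 had 240 rescaled FPKM without and 266 with Shld (-0.15). FKBP1A, which encodes the protein the DD was made from, had 242 without and 252 with Shld (-0.06), and its differences in the other lines lay between -0.05 and 0.02. Of the 10 FKBP family genes measured, 5 were above and 5 below 0 (median 0.03), and none passed 1.5-fold. FKBP9, an ER-resident prolyl isomerase, had 76.8 without and 53.3 with Shld (0.52), and FKBP2, also of the ER, had 124 without and 90.7 with Shld (0.45). FKBP3 had 84.2 without and 90.3 with Shld (-0.10), FKBP4 had 124 without and 111 with Shld (0.16), and FKBP8 had 193 without and 181 with Shld (0.10). A second, low FKBP4 locus had 3.26 without and 4.88 with Shld (-0.46).

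Splicing genes were spread about 0. The proteins of SF3a, SF3b and U2 had 8 of 17 above 0 (median -0.07). PUF60, a splicing factor that works beside U2AF, was past 1.5-fold, with 4.02 rescaled FPKM without and 11.5 with Shld (-1.31), but it also stood at 8.73 without and 3.52 with Shld in the mutant degron line and at 4.29 without and 7.60 with Shld in the wildtype degron line. Its values thus differed in both directions between lines. SR proteins and hnRNPs had 13 of 28 above 0 (median -0.06). HNRNPH1, a splicing regulator, was past 1.5-fold with 20.6 without and 31.6 with Shld (-0.60). It stood at 11.9 without and 22.3 with Shld in the knockout line. In the wildtype degron line HNRNPH1 had 8.10 without and 11.2 with Shld (-0.42), and in the mutant degron line 21.4 without and 20.4 with Shld. A list of transcripts that SF3B1-mutant cells are known to mis-splice had 10 of 23 above 0 (median -0.03), DYNLL1 with 799 without and 1086 with Shld (-0.44) and TMEM14C with 266 without and 355 with Shld (-0.42). The file holds gene totals, so splice junctions were not analysed here.

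Cell cycle and p53 genes gave medians near that of all genes, and the integrated stress response one further above it. G1/S and DNA replication genes had 27 of 46 above 0 (median 0.03) in parental cells, and G2/M and mitosis genes had 22 of 47 above 0 (median -0.04), while the same lists had medians of -0.50 and -0.61 in the knockout pair. MAD2L1, a spindle checkpoint protein, had 136 rescaled FPKM without and 200.4 with Shld (-0.55), and CENPE, a kinetochore motor, had 8.25 without and 6.24 with Shld (0.35). Targets of p53 had 14 of 22 above 0 (median 0.07, against 0.64 in the knockout pair), GDF15, a secreted stress cytokine, with 640 without and 511 with Shld (0.32). In the knockout line GDF15 had 667 without and 202 with Shld (1.72). The integrated stress response had 17 of 25 above 0 (median 0.13), SLC3A2, an amino acid transporter chain, with 285 without and 226 with Shld (0.34). That list's median was 0.24 in the knockout, -0.06 in the mutant degron and 0.22 in the wildtype degron pair.

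The pigment cell programme, with 23 genes, also differed little (15 above 0, median 0.07). PMEL (0.32) and APOE, an apolipoprotein of pigment cells, were higher without Shld, APOE with 776 without and 624 with Shld (0.32). MLANA (-0.32) and S100B, with 70.1 without and 88.8 with Shld (-0.34), were lower. Immediate early genes had 9 of 17 above 0 (median 0.06), EGR3 with 7.08 without and 4.64 with Shld (0.52). Of NF-kappaB signalling and its targets 10 of 14 were above 0 (median 0.08), and of interferon response genes 10 of 16 (median 0.06), UBE2L6 with 6.67 without and 10.5 with Shld (-0.58). Genes of the xenobiotic and oxidative response, which AHR and NRF2 drive, had 6 of 18 above 0 (median -0.03), NQO1 with 763 without and 908 with Shld (-0.25).

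Whether the parental difference stood apart from those of the other 3 lines was tested with limma across all 8602 genes. The parental difference less the mean of the other 3 passed an adjusted p of 0.05 in 0 genes. Another 571 had an unadjusted p under 0.05 (6.64%), 175 higher (2.03%) and 396 lower (4.6%). The spread in this test was that between the differences of the other 3 lines, which holds any degron and line effects of their own. That 0 genes passed therefore does not show that the parental difference was like theirs. The smallest adjusted p was that of GPRIN3 (0.35, estimate -2.03 ± 0.23 SE). Of the 62 ribosomal protein genes, 30 were among the 571, as were 12 of 29 ER folding genes and 16 of 69 oxidative phosphorylation genes, and none passed the adjustment. Without the knockout pair GPRIN3 alone passed (limma, adjusted p = 0.0042). The difference for RPS21 was -0.66 ± 0.14 (adjusted p = 0.71, limma).

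A difference shared by all 4 lines was tested in the same way. It also passed in 0 genes, with 525 at an unadjusted p under 0.05 (6.1%), 234 higher (2.72%) and 291 lower (3.38%). The smallest adjusted p was that of PCNA-AS1 (0.13, limma, estimate 3.16 ± 0.37 SE). PCNA-AS1 passed without the wildtype degron pair (limma, adjusted p = 0.014), and PCNA-AS1 and LRFN1 passed without the knockout pair (limma, adjusted p = 0.045 for both). Of all genes 7.5% were above 0 in all 4 pairs and 5.65% below 0 in all 4. Of the 67 genes lower in parental cells, 13 were below 0 in all 4, against 12.8% of all genes that were below 0 in parental cells. Of the 9 higher, 2 were above 0 in all 4, against 13.4% of all genes above 0 in parental cells. The parental sign was shared by 56.2% of genes with the knockout pair, by 45.6% with the mutant degron pair and by 51.5% with the wildtype degron pair.

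The genes named next kept 1 sign in all 4 lines and were chosen by the size of their smallest difference. RPL22L1, a paralog of the ribosomal protein RPL22, had 92.6 rescaled FPKM without and 160.0 with Shld in parental cells (-0.78), 32.7 without and 71.5 with Shld in the knockout line (-1.10), 79.5 without and 91.6 with Shld in the mutant degron line (-0.20) and 39.1 without and 50.04 with Shld in the wildtype degron line (-0.35). ZBTB8OS, a cofactor of the tRNA ligase complex, had differences of -0.39 in parental cells, -0.59 in the knockout, -0.33 in the mutant degron and -0.66 in the wildtype degron line. Its common estimate was -0.49 ± 0.07 SE (adjusted p = 0.46, limma). In the other direction, JUN, a subunit of AP-1, had 23.9 without and 19.3 with Shld in parental cells (0.29), and differences of 0.22, 0.15 and 0.23 in the knockout, mutant degron and wildtype degron lines. TYR, the rate-limiting enzyme of melanin synthesis, had 402.5 without and 361 with Shld (0.15), and differences of 0.34, 0.30 and 0.16 in those lines. None of these passed the adjusted threshold.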

How the data were processed

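Values came from 1 table that the authors deposited, with 1 column for each of the 8 libraries. The submitters' processing notes name TopHat, Cufflinks and hg19, without versions. Annotation and use of strand were not given in the sources used here. Deposited values are FPKM-type values that were rescaled so that the 75th percentile is 10 in every library; that FPKM was the input is inferred from Cufflinks and the values. Depth in counts is therefore unknown, and no interval that needs it is given.

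Of 9871 loci with a mean of at least 5, 939 unnamed transcripts, 146 small RNA loci and 184 further loci of a symbol were left out (the locus with the highest mean was kept), which left 8602 genes. Differences used a pseudocount of 1. The parental pair has 1 library a side and no test. A pair of limma fits on log2(value + 1), with line as a term, were made over the 8 libraries (limma 3.58.1, R 4.3.3, empirical Bayes with a trend, Benjamini-Hochberg adjustment). They used 2 residual degrees of freedom for the parental difference less the mean of the other 3, and 3 for the common difference. The code was run on simulated data with independent noise and planted changes. That simulation held no degron effects and no outlying library, so it checks the code alone. Separate cultures are not stated, so p-values measure only the spread between these libraries. Each lone library is assumed to vary like the others.

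Transcript lengths were medians over GENCODE transcripts matched by symbol, and length was corrected with lowess (statsmodels 0.14.6). Genes named were drawn from the up to 15 highest and 15 lowest past 1.5-fold with both values at least 1, those with a value near 0, in each list the 6 members that differed most, the genes with 1 sign in all 4 lines and the largest smallest difference (5 each way), those with the smallest p, SF3B1 and the FKBP family. The comparison, its 8602 genes and the 39 lists were chosen with earlier results of these data known. Alternatives were other pseudocounts, level limits, scalings, length corrections and leaving out a pair of another line.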

Additional observations from a re-analysis of the deposited data

How the results depend on the processing

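The counts at 1.5-fold moved with the settings, against 9 higher and 67 lower as reported. A pseudocount of 0.1 gave 20 higher and 79 lower, and 10 gave 1 and 29. A mean of at least 1 gave 36 and 128 of 10522 genes, and of at least 20 gave 0 and 42 of 5094. The length correction gave 17 and 31 of the 8446 genes with a length, of which 8 and 62 were called before it, and a correction for length and GC, added after the data were seen, gave 18 and 23. Median centring (6 and 77), quantile normalization (10 and 53) and a limit on the parental mean (7 and 73) moved them less. In limma, the parental difference less the others passed in 1 gene, GPRIN3, without the knockout pair, and in 0 under the other 8 alternatives. The common difference passed in 1 gene, PCNA-AS1, at a pseudocount of 0.1 and without the wildtype degron pair, and in 2, PCNA-AS1 and LRFN1, without the knockout pair, and in 0 under the other 6. The cause was not tested.

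No list median past 0.1 turned under any setting, and of 248 genes followed 7 changed sign, none of them past 1.5-fold, but the oxidative phosphorylation median went to -0.03 and the ribosomal protein median to between -0.36 and -0.09. At a pseudocount of 10 the medians of YAP targets (0.07), class I presentation (0.17) and integrins and cadherins (0.14) were lower, and after the length correction those of small nucleolar RNA hosts (-0.16) and metallothioneins (0.60) moved. The labels number 1 repeat, in parental cells alone, so no replicate number pairs libraries across lines. Within a line, the libraries without and with Shld were paired through the line term of both limma fits. Depth is unknown, 1 library a side limits every parental value, and small differences of low genes rest on few fragments.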

Other observations

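The 1085 unnamed or small RNA loci with a mean of at least 5 were left out of the counts. Of these, 5 were at least 1.5-fold higher and 18 at least 1.5-fold lower without Shld in parental cells, and 7 were listed at 0 in 1 parental library and at least 5 in the other.

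Lists not described above had no gene past 1.5-fold. Cytosolic heat shock chaperones were above 0 in 19 of 24 (median 0.07), HSP90AA1 with 1386 rescaled FPKM without and 1159 with Shld. Components of TGF-beta signalling were above 0 in 13 of 19, TGFBR2, a receptor, with 7.61 without and 4.83 with Shld (0.56). Nonsense-mediated decay factors were above 0 in 13 of 17 (median 0.06), with MAGOHB, an exon junction protein, at 12.5 without and 17.3 with Shld (-0.44). Genes of growth arrest and nutrient state were above 0 in 17 of 23 (median 0.06), and the BCL2 family in 7 of 10 (median 0.03), PMAIP1, the BH3 protein NOXA, with 10.0 without and 12.6 with Shld (-0.31). Uveal melanoma genes, a list that holds ROBO1, ECM1, EIF1B and FXR1 beside driver genes, were above 0 in 11 of 18 (median 0.07). MAPK output genes were above 0 in 6 of 10 (median 0.07) and replication-dependent histones in 2 of 5 (median -0.09).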
